A study of Drosophila melanogaster with 2 samples.

Results

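The genes of the translation initiation factors were examined for binding of Brinker in whole larvae of Drosophila melanogaster. A gene belonged to the set when the dm6 annotation of Ensembl release 115 calls it protein-coding and its name starts with eIF. This rule uses no measured value, though the set was chosen with earlier results of these data known. It found 44 genes among 13945 protein-coding genes on the 6 chromosome arms 2L, 2R, 3L, 3R, 4 and X. The single group of the series consists of male and female larvae, pooled, in the wandering stage of the third instar, of the strain brk-GFP, a transgenic line that stably makes Brinker with GFP fused to its C-terminus. Chromatin was sheared by sonication and precipitated with an antibody against GFP, and the labels number the 2 biological replicates 3 and 4. What drives expression of the fusion protein is not given in the sources used here, and the use of whole animals means that a peak cannot be placed in a tissue. A control alignment entered the authors' peak calling, and no values of a control precipitation, a second genotype or another stage were used here.

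Brinker is a DNA-binding repressor that keeps targets of the BMP ligand Dpp off where Dpp signalling is low, and it is best known for setting growth and patterning in the wing disc. Initiation factors bring the small ribosomal subunit and the initiator tRNA to the capped end of an mRNA, unwind its leader, find the start codon and then let the large subunit join. Growing cells depend on the core factors, some of which also have paralogues that act in the testis, and growth signals act above all on the cap-binding protein eIF4E1.

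A smaller share of these genes than of all protein-coding genes had a Brinker peak in or near them. Peaks were taken from the list filtered by irreproducible discovery rate (IDR), a method that scores how well the ranks of peaks match between lists. How the replicates entered it here is not stated in full, and not every kept peak has an entry in both replicate lists. Such a peak had its summit, the position of highest enrichment, inside the gene or no more than 5 kb away for 7 of the 44 (15.9%), against 26.9% of all protein-coding genes. The 7 were eIF2beta, eIF3c, eIF3l, eIF4A, eIF4E1, eIF4EHP and eIF5B. A promoter summit, meaning one within 500 bp of a transcription start site (TSS) of the gene itself, was present at 2 of the 44 (4.55%), eIF3c and eIF4EHP, against 10.5% of all protein-coding genes. The series has 1 condition, so these shares are set beside each other as a description and no test was made of their difference.

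The 7 genes were credited with 13 distinct peaks among the 3380 nuclear peaks of the IDR list. eIF4EHP had 4 of them, eIF4A, eIF4E1 and eIF5B had 2 each, and eIF2beta, eIF3c and eIF3l had 1 each. The deposited signal, whose scale is not stated, was between 85.0 and 572 at these peaks with a median of 133, and the median of all nuclear IDR peaks was 119. Of the 13 peaks, 9 were at or above that overall median. The start nearest to the summit belonged to the initiation factor at 2 of the 13 peaks and to another protein-coding gene at 11. The rule counts a summit for every gene within 5 kb, so a nearer start of another gene is allowed by construction. The same count over all protein-coding genes was not made, so these numbers do not set the initiation factor genes apart.

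**Figure D1:**
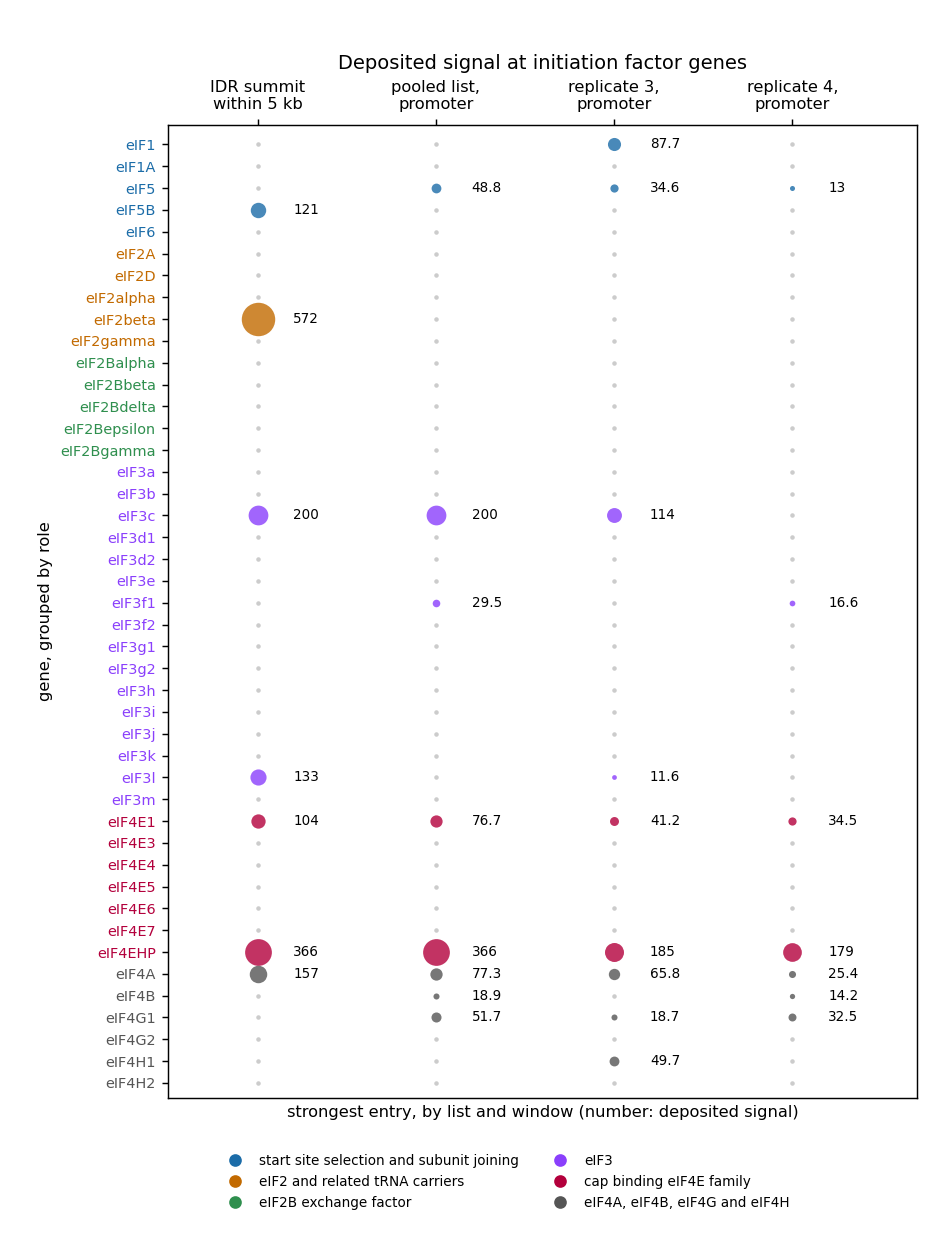
Deposited signal (number and dot area) of the strongest entry at each of the 44 initiation factor genes, coloured by role: columns give the strongest IDR summit within 5 kb of the gene and the strongest entry within 500 bp of its own TSS in the full pooled, replicate 3 and replicate 4 lists, and a grey dot stands for no entry. Most rows are empty, and eIF4EHP is the only gene with a signal above 100 at its own promoter in both replicate lists.

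Sequence around 4 of the summits is shown here. They carry the contrast between a promoter shared with a neighbour, a start of a neighbour and an intron far from coding starts. Each line gives the plus strand of dm6 as in the RefSeq Release 6 assembly, 75 bp on either side of the summit. Capitals mark a match to any of the 6 motifs named after the list. None of these windows overlaps an annotated exon.

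eIF4EHP, promoter summit shared with CG18428, chr3R:24109088-24109238: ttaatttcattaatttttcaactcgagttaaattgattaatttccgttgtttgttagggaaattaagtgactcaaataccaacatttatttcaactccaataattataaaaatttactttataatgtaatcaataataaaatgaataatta

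eIF2beta, summit at the start of ver, chr3L:12524153-12524303: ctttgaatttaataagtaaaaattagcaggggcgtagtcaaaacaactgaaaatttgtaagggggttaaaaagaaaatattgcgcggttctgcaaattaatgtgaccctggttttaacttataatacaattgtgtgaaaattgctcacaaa

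eIF4E1, summit at the start of CG4080, chr3L:9399366-9399516: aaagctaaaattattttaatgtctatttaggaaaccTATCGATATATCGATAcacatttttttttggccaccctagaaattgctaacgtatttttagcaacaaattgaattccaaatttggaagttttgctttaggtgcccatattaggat

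eIF5B, stronger of its intronic summits, chr3L:3432768-3432918: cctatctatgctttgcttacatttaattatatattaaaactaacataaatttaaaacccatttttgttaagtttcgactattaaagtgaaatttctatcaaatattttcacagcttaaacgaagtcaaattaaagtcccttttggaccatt

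The motifs were searched on both strands within 100 bp of each summit. They were the Brinker site (GGCG followed by CC, CT, TC or TT), the Mad site GCCGNCG, the DNA replication-related element TATCGATA with its core CGATA, which the boundary protein BEAF-32 also binds, the E-box CACGTG and the GAGA repeat GAGAG. The Brinker site was in 0 of the 13 windows, which allows a share of up to 23.1%, against 14.3% of all nuclear IDR summit windows, so a difference was not detectable with 13 windows. Within 250 bp it was in 6 of the 13, or 46.2%, against 38.1% of all. The Mad site and the E-box were in 0 windows as well, against 4.26% and 1.89% of all. CGATA, whose count includes each match to the longer element, was in 5 of the 13 windows (38.5%), against 27.0% of all. GAGAG was in 4 of the 13 (30.8%), against 28.3%. The full replication-related element was in 1, at the eIF4E1 peak, where the printed line shows it in direct succession, and in 3.08% of all windows. The printed eIF4EHP line is rich in A and T, and the window of 100 bp on either side of that summit had a GC content of 21.4%, the lowest of the 13. Their median was 37.3%, against 34.3% for all nuclear IDR summits.

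The cap-binding family held the gene with the most peaks. eIF4EHP encodes a relative of eIF4E1 that binds the cap but not the scaffold eIF4G, and in the fly embryo it represses caudal and hunchback mRNA. Its strongest peak (signal 366, rank 133 of the nuclear IDR peaks) spanned positions 24109037 to 24109360 of 3R and reached 185 in the replicate 3 list and 179 in the replicate 4 list. The summit lay between genes, 203 bp upstream of the eIF4EHP start and 173 bp upstream of the start of CG18428, which is transcribed the other way. The peak thus sits in a promoter that both genes share, with starts 376 bp apart, and cannot be assigned to either.

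The other 3 peaks of eIF4EHP were not at its start. Ensembl gives the gene a length of 45884 bp, and it holds Syx1A, the syntaxin gene of neurotransmitter release, within its bounds. A peak of 225 (117 in replicate 3 and 109 in replicate 4) had its summit in an eIF4EHP intron, 2495 bp downstream of the start of eIF4EHP and 702 bp from that of Syx1A. A weaker intronic peak (105, with 64.0 in replicate 3 and 40.8 in replicate 4) lay 23812 bp into the gene. The last (191, with 84.9 in replicate 3 and 108 in replicate 4) was outside, 3771 bp upstream, with the start of CG13605 at 342 bp. A tRNA gene, tRNA:Leu-TAA-2-1, had its start nearer still, at 233 bp.

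eIF4E1, the main cap-binding protein and the point where TOR signalling acts through the inhibitor Thor, had its peaks at the far end of the gene. The stronger (104) spanned 9399233 to 9399648 of 3L, 177 bp beyond the 3' end of eIF4E1 and 214 bp from the start of CG4080, with signals of 47.2 in replicate 3 and 57.8 in replicate 4. The weaker (96.1) was in an intron of CG4080 and differed most between the lists, with 68.5 in replicate 3 and 30.6 in replicate 4. At the promoter of eIF4E1 itself the IDR list had no summit. The full pooled list, which also holds background, had an entry of 76.7, 24 bp downstream of a start, at rank 3807 and below the lowest nuclear IDR signal of 82.6. The strongest promoter entries of the replicate lists were 41.2 in replicate 3 and 34.5 in replicate 4. The remaining cap-binding genes, eIF4E3, which acts in the testis, eIF4E4, eIF4E5, eIF4E6 and eIF4E7, had no IDR summit within 5 kb and no entry at the promoter in any of the 3 full lists.

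eIF2beta had the strongest peak of the set. The gene encodes a subunit of the complex that carries the initiator tRNA. The peak (signal 572, rank 37) spanned 12524047 to 12524409 of 3L and reached 295 in the replicate 3 list (rank 38) and 277 in the replicate 4 list (rank 44). Its summit was 865 bp beyond the 3' end of eIF2beta and 2503 bp from its start. It lay in an intron of ver, a telomere protection gene, 199 bp from a ver start. The start of Gcn5, a histone acetyltransferase gene, was close as well, at -214 bp from the summit along the plus strand. The outermost ver start was on the same side, at -241 bp. The other genes of this group, eIF2alpha, eIF2gamma, eIF2A and eIF2D, had no IDR summit within 5 kb, and none of the 5 had an entry at its own promoter in any full list.

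**Figure D2:**
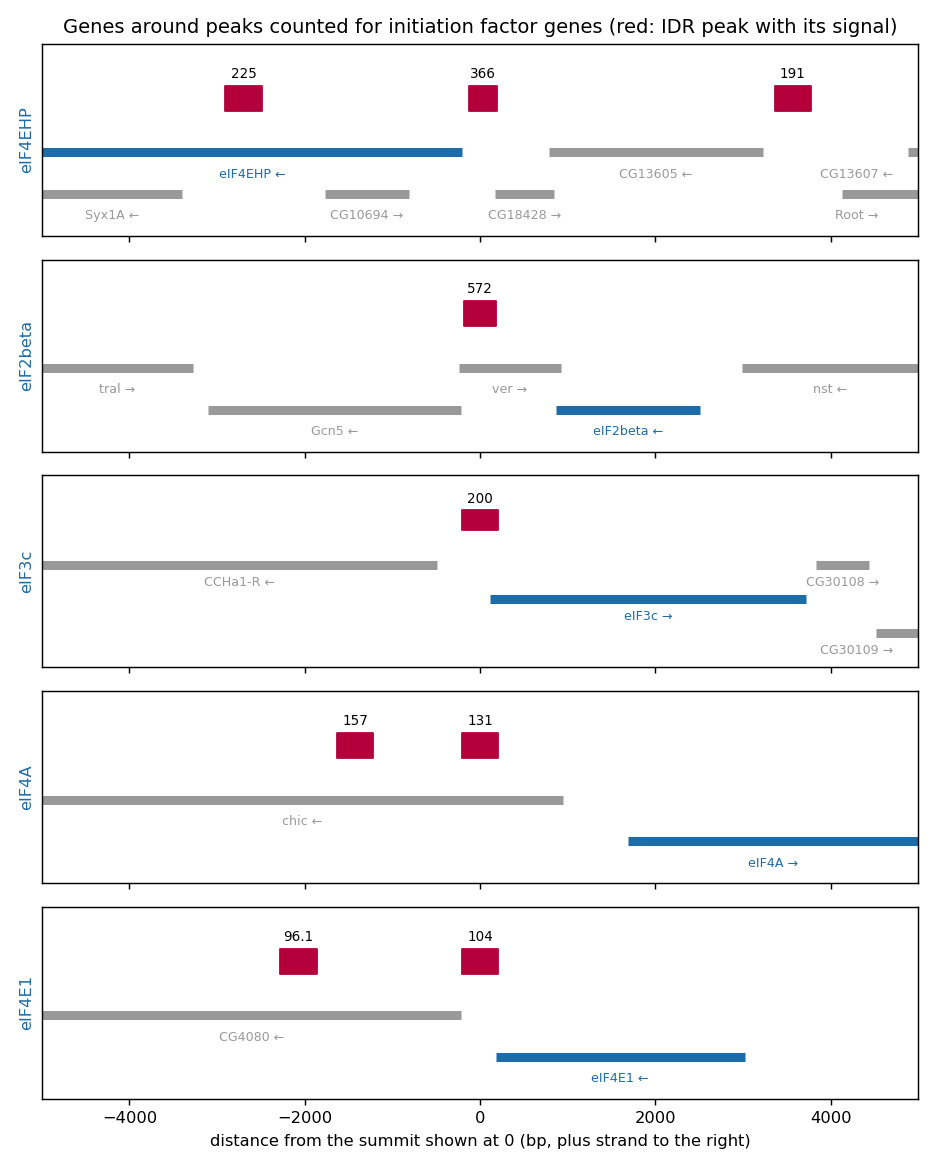
Genes (bars, drawn to 5 kb on either side, with arrows for their strand) and IDR peaks (red, with the deposited signal) around a summit placed at 0, for eIF4EHP, eIF2beta, eIF3c, eIF4A and eIF4E1. The eIF4EHP and eIF3c summits lie just upstream of those genes (blue), and those of eIF2beta, eIF4A and eIF4E1 lie at or in a neighbouring gene (grey).

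eIF3c was the only gene with a promoter summit nearest to its own start. eIF3 is the large scaffold that holds the small subunit and the other factors together, and eIF3c is a core subunit of it. The peak (signal 200, rank 594) spanned 17665354 to 17665769 of 2R, with its summit 116 bp upstream of the eIF3c start. The start of the neighbour CCHa1-R, transcribed the other way, was 610 bp from that of eIF3c. Counted along the plus strand, it lay at -494 bp from the summit. Both starts were thus within 500 bp of the summit, and position alone does not assign the peak to either gene. Replicate 3 had 2 entries under the peak, the stronger with a signal of 114. Replicate 4 had none, and its nearest summit was 5498 bp away. Among the 13 peaks this was the single one without an entry in both lists.

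Of the 16 eIF3 genes, eIF3l also had a peak (133, with 52.6 in replicate 3 and 86.7 in replicate 4), 4652 bp beyond its 3' end. Its summit was 74 bp from the start of the neighbour RhoGAP68F and 7303 bp from that of eIF3l. That summit was the closest of the counted ones to the limit of 5 kb. Just outside the limit, eIF3h had 3 IDR summits between 6939 and 8324 bp away, with signals of 126, 202 and 139. The other eIF3 genes, eIF3a, eIF3b, eIF3d1, eIF3d2, eIF3e, eIF3f1, eIF3f2, eIF3g1, eIF3g2, eIF3i, eIF3j, eIF3k and eIF3m, had no IDR summit within 5 kb.

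eIF4A, the helicase that unwinds the leader, had peaks only upstream, in its neighbour chic. chic encodes profilin, which binds actin monomers, and is transcribed away from eIF4A. The stronger peak (157, with 74.6 in replicate 3 and 80.0 in replicate 4) was in a chic intron, 3118 bp from the eIF4A start. The other (131, with 62.4 and 70.7 in replicates 3 and 4) was 30 bp from a chic start and 1693 bp from that of eIF4A. At the eIF4A promoter itself the pooled list had an entry with a signal of 77.3 at rank 3767, at position -112 bp from a start (minus means upstream). The strongest promoter entry of replicate 3 (65.8 at rank 1892) lay at -110 bp. That of replicate 4 (25.4 at rank 7776) lay elsewhere, at -345 bp from a start. The partners eIF4B, eIF4G1, eIF4G2, eIF4H1 and eIF4H2 had no IDR summit within 5 kb. For eIF4B, which stimulates eIF4A, the nearest IDR summit on 3L was 4747190 bp away. The nearest start of another protein-coding gene was itself 154328 bp from that of eIF4B. The distance thus describes this stretch of 3L rather than the gene.

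eIF5B, the GTPase of subunit joining, had 2 peaks inside its 32320 bp. The stronger (121, with 44.8 in replicate 3 and 74.1 in replicate 4) was in an intron 27760 bp from the start of eIF5B and 7908 bp from that of sty, an antagonist of receptor tyrosine kinases. The weaker (85.0, with 35.6 in replicate 3 and 44.2 in replicate 4) was in an intron 17606 bp from the start. Neither peak of eIF5B was within 500 bp of a protein-coding start. The genes of start site selection, eIF1, eIF1A and eIF5, and eIF6, which keeps the subunits apart, had no IDR summit within 5 kb.

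eIF2B is the exchange factor that reloads eIF2 with GTP and the target of the stress response. Its 5 genes, eIF2Balpha, eIF2Bbeta, eIF2Bgamma, eIF2Bdelta and eIF2Bepsilon, had no IDR summit within 5 kb. They are at most 2709 bp long. Of all protein-coding genes of at most 5 kb, 21.2% had such a summit, so an absence at 5 genes says little. In replicate 3 alone, an entry of 374 lay 674 bp from eIF2Bbeta. Their distances to the nearest IDR summit ran from 18922 bp at eIF2Bepsilon to 57759 bp at eIF2Balpha. No full list had an entry at the promoter of any of them.

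**Figure D3:**
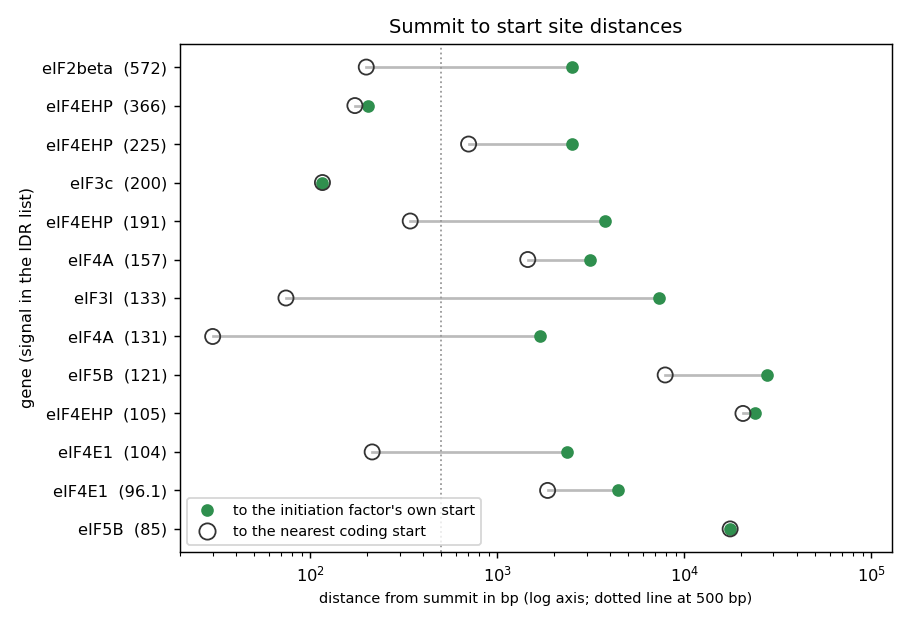
Distance in bp (log axis) from each of the 13 summits to the start of the initiation factor gene it was counted for (green) and to the nearest start of any protein-coding gene (open circle), in order of falling IDR signal given in brackets. The 2 distances coincide for eIF3c and the weaker eIF5B peak, and 7 summits are within 500 bp (dotted line) of some coding start.

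The share of initiation factor genes with a promoter entry was also below that of all protein-coding genes in the lists that include background. These lists hold about as many entries each, 29964 nuclear ones for the pool, 29964 for replicate 3 and 29966 for replicate 4. An entry within 500 bp of its own start was found for 8 of the 44 genes in the pooled list (18.2%), against 26.4% of all protein-coding genes. In replicate 3 it was 9 of 44 (20.5%), against 32.2%, and in replicate 4 it was 7 of 44 (15.9%), against 26.4%. Taking the 3 lists together, 11 of the 44 genes had such an entry (25%), against 37.8% of all protein-coding genes. Beyond the genes already named, eIF5, which triggers GTP hydrolysis on eIF2, had 48.8 in the pool (34.6 in replicate 3 and 13.0 in replicate 4). eIF4G1, the scaffold that joins cap and ribosome, had 51.7 (18.7 and 32.5). eIF3f1 had 29.5 in the pool and 16.6 in replicate 4, and eIF4B had 18.9 in the pool and 14.2 in replicate 4. eIF3l had an entry in replicate 3 only, with 11.6. The pooled values are all below the lowest signal of the IDR list.

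Signals in the replicate lists were set side by side for the 13 peaks. At the 12 peaks with an entry in both, the log2 ratio of replicate 3 to replicate 4 ran from -0.73 to 1.16 with a median of -0.14, and 5 peaks were higher in replicate 3 and 7 in replicate 4. For eIF2beta and the promoter peak of eIF4EHP the ratios were 0.09 and 0.04. The range was set by the weaker eIF4E1 peak at the upper end and by the stronger eIF5B peak at the lower end, with that of eIF3l at -0.72. The ratios hold only if both lists are on 1 scale, and whether they are was not tested.

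**Figure D4:**
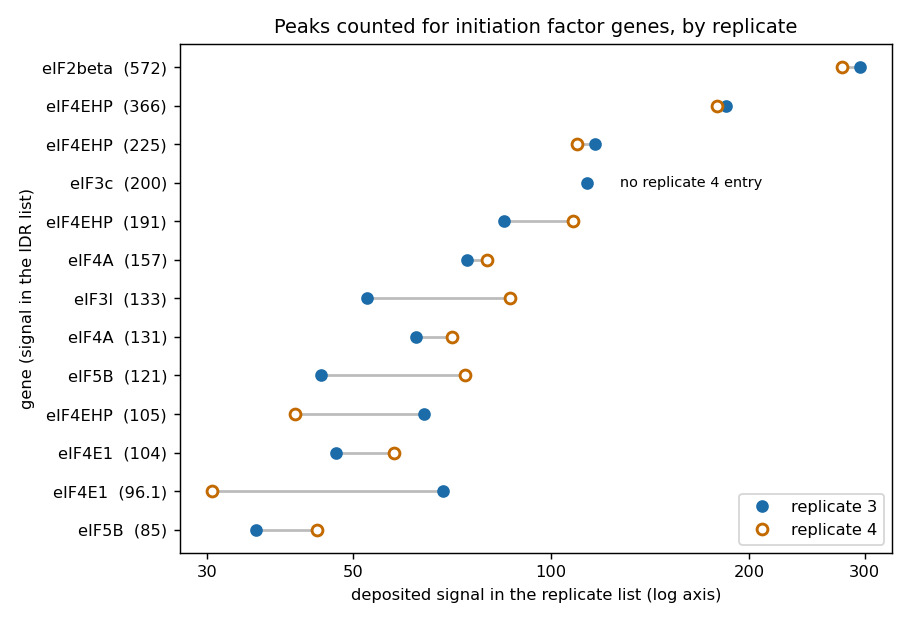
Deposited signal (log axis) of the 13 peaks in the lists of replicate 3 (filled) and replicate 4 (open), in order of falling IDR signal given in brackets. The points nearly coincide for eIF2beta and the strongest eIF4EHP peak, and eIF3c has a value in replicate 3 only.

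The count of genes depended on the replicate. With the 3380 strongest nuclear entries of replicate 3 alone, 12 of the 44 genes (27.3%) had a summit within 5 kb, against 31.7% of all protein-coding genes. The gap to all genes was thus narrower than with the IDR list. With those of replicate 4 alone it was 6 (13.6%), against 26.8%, all of them among the 7, and eIF3c was the gene lost. Replicate 3 added eIF1, eIF2alpha, eIF2Bbeta, eIF3e and eIF4H1. The added entry at eIF2Bbeta had a signal of 374, at rank 19 of replicate 3, and lay 45 bp from the start of its neighbour Ugalt on X. The nearest summit of replicate 4 was 40360 bp away and that of the pool 27307 bp away. At eIF1, which guards start codon choice, an entry of 87.7 was 127 bp upstream of the start. At eIF4H1 an entry of 49.7 was 11 bp from the start and was also the one counted for eIF2alpha. Among the 3380 strongest entries of replicate 3, 11.8% overlapped no pooled entry, and among those of replicate 4 it was 2.57%. At promoters, replicate 3 alone gave 5 of the 44 genes (11.4%), against 12.7% of all protein-coding genes. Replicate 4 alone gave 1 (2.27%), against 9.97%.

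Gene length, spacing and chromosome are given here beside the count, since longer genes offer more room for a summit. Initiation factor genes had a median length of 1968 bp, against 2166 bp for all protein-coding genes, and 36 of the 44 (81.8%) were at most 5 kb long, against 75%. Of those 36, 5 had an IDR summit within 5 kb (13.9%), against 21.2% of all protein-coding genes of that length. Of the 8 longer ones, 2 did, eIF4EHP and eIF5B (25%), against 44.2% of all protein-coding genes longer than 5 kb. Of the 44 genes, 19 (43.2%) had the start of another protein-coding gene within 500 bp, against 30.9%. Of these 19, eIF4EHP alone had a promoter summit, where 13.4% of all protein-coding genes with such a neighbour did. On X, 0 of 7 initiation factor genes had a summit within 5 kb, against 22.9% of all protein-coding genes there. On 3R, with the most members, it was 1 of 13, against 24.9%, on 2R 1 of 9, against 24.4%, and on 4 it was 0 of 1, against 58.8%. On 3L it was 4 of 11, against 32.5%, and on 2L 1 of 3, against 28.9%, so the share was not the lower on these arms. The counts per arm are too small to set the arms apart.

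**Figure D5:**
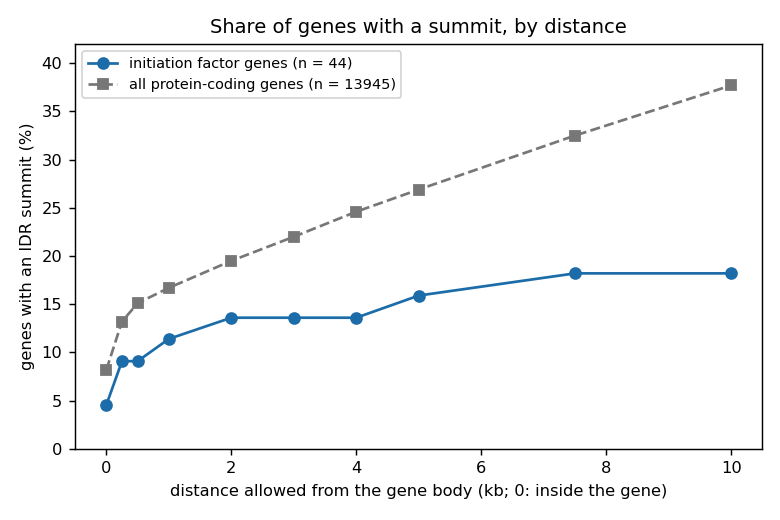
Share of genes (%) with an IDR summit inside the gene or within the distance on the x axis (kb), for the 44 initiation factor genes (circles) and all 13945 protein-coding genes (squares). The share of the initiation factor genes is the lower at every distance drawn, 4.55% against 8.19% inside the gene and 18.2% against 37.7% within 10 kb.

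The same motifs were searched at the starts of the genes. Within 100 bp of the outermost 5' end, TATCGATA was present at 10 of the 44 (22.7%), against 7.84% of all protein-coding genes. The 10 were eIF2Bbeta, eIF2alpha, eIF2gamma, eIF3a, eIF3f1, eIF3l, eIF4A, eIF4B, eIF4E6 and eIF6. None of them had a promoter summit, where 14.0% of all protein-coding genes with the element did. The core CGATA was at 26 of 44 (59.1%), against 39.4%. The E-box was at 4, namely eIF2A, eIF3f2, eIF4A and eIF6 (9.09%, against 2.88%). None of these had a promoter summit, where 11.2% of all protein-coding genes with the E-box did. With 10 genes for TATCGATA and 4 for the E-box, a difference from the shares of all protein-coding genes was not detectable. The Mad site was at 1, eIF3a (2.27%), against 8.61%. GAGAG was at 4 of 44 (9.09%), against 22.5%. The Brinker site was at 7 of 44 (15.9%), against 20.8%, and the 7 included both genes with a promoter summit, eIF3c and eIF4EHP. Of all protein-coding genes with that site at the 5' end, 12.1% had a promoter summit, close to the 10.5% of all protein-coding genes. Within 100 bp of the promoter summits of eIF3c and eIF4EHP themselves, the site was absent. eIF3c was also among the 26 genes with CGATA and the 4 with GAGAG. In each of these sets it alone had a promoter summit. Of all protein-coding genes with CGATA, 12% had one, and of those with GAGAG, 13%. A match describes the sequence only and does not show that a factor binds there.

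Genes that control initiation, and those of elongation and release, were counted in the same way. Of 27 such genes, 17 had an IDR summit within 5 kb (63.0%), against 26.9% of all protein-coding genes, and 12 had one at their own promoter (44.4%), against 10.5%. The lists were drawn up by hand with earlier results of these data known, so these shares support nothing about the pathway. These genes are longer, with a median of 5773 bp, and of the 12 that are at most 5 kb long, 8 had a summit within 5 kb, against 21.2% of all protein-coding genes of that length. Among the 18 regulators, 12 had a summit (66.7%, against 26.9%) and 9 had it at the promoter (50%, against 10.5%). The strongest summit within 5 kb was at Lk6, with 1124, and was not at its promoter. bel (371) and PPP1R15 (269) had summits within 5 kb and none at the promoter. The strongest promoter signal was 677 at larp, which encodes an RNA-binding regulator of mRNAs of the translation machinery, with 309 in replicate 3 and 372 in replicate 4. The promoters of kra (174), NAT1 (165), a relative of eIF4G, Lk6 (158), the kinase of eIF4E1, pAbp (131), the poly(A)-binding protein, Paip2 (121), its antagonist, and crc (111), the stress response factor of the ATF4 type, followed. Those of 4E-T (84.9), which binds eIF4E1 in granules, and Thor (83.5), the inhibitor of eIF4E1, were near the lower end of the IDR list. PEK and Gcn2, the kinases of eIF2alpha, had no summit within 5 kb, nor had cup, mxt, DENR and Fmr1.

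Among the 9 elongation and release factor genes, 5 had a summit within 5 kb (55.6%, against 26.9%) and 3 had it at the promoter (33.3%, against 10.5%). These were eRF1 (206, with 108 in replicate 3 and 104 in replicate 4), the factor that reads stop codons, eEF1alpha1 (166), which delivers tRNA to the ribosome, and eEF2 (104), which moves the ribosome along. At eEF2 the values were 29.5 in replicate 3 and 71.4 in replicate 4. The contrast with the initiation factor genes is a description of these names and was not tested.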

How the data were processed

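Narrow-peak lists of chromatin immunoprecipitation followed by sequencing were used for the 2 replicates of 1 group. What each list is, its build and the control alignment are known from notes deposited with the samples. Aligner, peak caller, versions and IDR threshold were not given in the sources used here, so none is named. The signal of each peak is the value the authors deposited, on a scale that is not stated, and summits were placed by the offset in bases that the authors deposited for each peak. Sequencing depth is unknown from peak lists, so the precision of a signal cannot be given. The 4 lists on dm6 were used, the IDR list of 3413 peaks without its 33 mitochondrial ones. The 4 lists on dm3 were not used.

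Ensembl release 115 (BDGP 6.54, without transposable elements) gave genes and TSSs, and the RefSeq Release 6 assembly gave sequence. Positions count from 1. Distances and overlaps (at least 1 bp) were computed with Python 3.11.15 and checked on planted summits. Every member is named, with values where it has a summit. Members, gene lists and motifs were chosen with earlier results of these data known, and no test was made. Alternatives were the list, the signal threshold, the distance, the promoter window, the assignment to the nearest TSS, the overlap and the motif window.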

Additional observations from a re-analysis of the deposited data

How the results depend on the processing

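The share of initiation factor genes with a summit was below that of all protein-coding genes in all 10 alternatives for which the 5 kb share of all genes was computed, and in all 8 for the promoter share. These alternatives draw on the same 2 replicates and in part on the same peaks, so the tallies are not independent. The strongest pooled entries gave the same counts as the IDR list, 7 members and 3753 protein-coding genes within 5 kb, and 2 and 1458 at promoters. This alternative is no separate check, though the tallies of alternatives include it. The promoter peaks of eIF3c (200, rank 594) and eIF4EHP (366, rank 133) had the same signal and rank in both lists. The gap was narrow with replicate 3 alone, 27.3% against 31.7% within 5 kb and 11.4% against 12.7% at promoters. The counts moved more. In the lists of single replicates, the 7 genes within 5 kb ranged from 6 to 12, the 2 with a promoter summit from 1 to 5, the 1 gene whose own start is nearest to its strongest summit from 0 to 4, and the 13 peaks from 12 to 20. Replicate 4 gave the low counts and replicate 3 the high ones. With summits inside the gene only, 2 genes (eIF4EHP and eIF5B) and 4 peaks were left. With each summit given to the nearest start, 2 genes (eIF3c and eIF5B) were left, where 14.4% of all protein-coding genes had a summit. The peaks numbered 8 within 1 kb and 22 within 10 kb. Windows of 250 bp on either side of the summit held the Brinker site at 6 peaks. Requiring an entry in both replicates, an alternative chosen after seeing the data, left 1 gene with a promoter summit, eIF4EHP. Counts change with distance and window by construction, and for the single replicates the cause was not tested. The other 26 of 39 alternatives stayed within 1.5 times the count given. Unknown depth limits what an absent entry can show.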
